A study of Rattus norvegicus with 6 samples.

Results

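The ATP-binding cassette (ABC) transporter genes of rat sciatic nerve were described here, with 50 members among the 29884 genes of the count table. A gene was a member when its symbol consisted of Abc, a letter from a to g, a number and at most 1 further letter, so no measured value entered that pattern. The nerves came from rats labelled wild type that had undergone chronic constriction injury (CCI), a neuropathic pain model made by tying the sciatic nerve loosely. In 3 libraries the injured nerve had received a PLLA-PCL-RVC conduit, a polymer wrap that the labels call piezoelectric and that carries ropivacaine, a local anaesthetic. The other 3 libraries came from injured nerve without treatment. No uninjured nerve, no empty conduit and no ropivacaine without a conduit were among these groups, and age, sex and time after injury were not given in the labels. The labels did not say whether each library came from 1 animal or from pooled ones, so p-values reflect only how far these libraries vary, which could be technical.

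ABC proteins bind ATP on paired nucleotide-binding domains and use its hydrolysis to move substrates across a membrane. Members of subfamilies A and G carry mostly lipids and sterols, many of subfamilies B and C carry drugs, conjugates and peptides, and subfamily D serves peroxisomes and lysosomes, while E and F are soluble proteins of translation. In peripheral nerve, lipid transporters matter both for the cholesterol-rich myelin of Schwann cells and for macrophages that clear myelin debris, and efflux pumps line the endothelium of the blood-nerve barrier.

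Total counts ran from 38401951 to 42225086 per library. The labels carried 5 batch numbers, 3 in conduit and 2 in untreated nerves, and no batch held both groups, so batch and treatment cannot be told apart. Untreated replicates 1 and 2 shared a batch number, while untreated replicate 3 and each conduit library had their own. What sets untreated replicate 3 apart from its group therefore cannot be told apart from batch. Untreated replicate 1 stood apart in its summed skeletal muscle markers, at 10800 CPM (counts relative to library size after scaling), against 3.45 to 76.9 CPM in the other 5 libraries. Conduit replicate 3 had the highest summed adipocyte markers, at 2420 CPM, against 469 to 1413 CPM in the other 5. Markers of myelinating Schwann cells, the defining glia of nerve, were present in every library and summed to 157800 to 205700 CPM in conduit and 10770 to 26260 CPM in untreated nerves. In bulk tissue, fewer cells of a type and less RNA per cell cannot be told apart.

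Promoters of 8 members that the results turn on are printed to show what precedes the start of each gene. These are the lipid exporters Abca1, Abca2 and Abcb4, the efflux pumps Abcb1a, Abcb1b and Abcg2, and Abca8 and Abca9 of an adjacent ABCA group. Each run is the 120 bases before the first start that RefSeq lists, on the gene's strand, 5′ to 3′, on GRCr8, a later build than the mRatBN7.2 of the submitters. Capitals mark matches to GGGCGG (a GC box), CACGTG (an E-box), TGACNNNGC (the core bound by NRF2) or GGTNA, 5 bases and GGTCA (a relaxed DR4-type repeat), on either strand. The pair of capitals at the left end of the Abcb1a run is the tail of a GC box that starts before it.
Abca1, chr5:72596474-72596593, minus strand: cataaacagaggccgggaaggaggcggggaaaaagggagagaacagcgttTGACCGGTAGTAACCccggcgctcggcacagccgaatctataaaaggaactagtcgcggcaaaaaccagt
Abca2, chr3:28642664-28642783, plus strand: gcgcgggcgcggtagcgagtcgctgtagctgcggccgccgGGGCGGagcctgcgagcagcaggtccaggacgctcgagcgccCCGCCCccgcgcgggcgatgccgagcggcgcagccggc
Abcb4, chr4:26164146-26164265, minus strand: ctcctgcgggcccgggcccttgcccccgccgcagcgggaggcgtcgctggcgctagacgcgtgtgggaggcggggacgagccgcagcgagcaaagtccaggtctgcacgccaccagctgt
Abcb1a, chr4:26397649-26397768, minus strand: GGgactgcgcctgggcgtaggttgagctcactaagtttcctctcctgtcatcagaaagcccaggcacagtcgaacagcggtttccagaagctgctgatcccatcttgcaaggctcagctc
Abcb1b, chr4:26280030-26280149, minus strand: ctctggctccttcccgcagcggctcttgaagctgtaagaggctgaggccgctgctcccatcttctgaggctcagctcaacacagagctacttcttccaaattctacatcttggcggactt
Abcg2, chr4:89075354-89075473, plus strand: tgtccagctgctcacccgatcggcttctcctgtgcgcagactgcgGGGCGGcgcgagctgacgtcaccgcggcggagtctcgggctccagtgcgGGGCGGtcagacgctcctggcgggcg
Abca8, chr10:95476846-95476965, minus strand: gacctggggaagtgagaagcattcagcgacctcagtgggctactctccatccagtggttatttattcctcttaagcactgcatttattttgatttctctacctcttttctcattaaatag
Abca9, chr10:95638702-95638821, minus strand: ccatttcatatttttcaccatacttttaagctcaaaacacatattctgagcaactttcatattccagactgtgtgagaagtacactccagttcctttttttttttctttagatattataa
The relaxed DR4-type repeat, the kind of element known to bind liver X receptors (LXR), was searched after the promoters had been seen. It lay in 1 of 49 member promoters, that of Abca1 (2.04%), and in 0.23% of all 33469 promoters. Because the promoters had been seen first, these shares cannot measure enrichment. Shares cover the 300-base window of 250 bases before and 50 after each start, on both strands. An exact repeat of AGGTCA with a gap of 4 bases was in 0 of the 49 and in 0.00598% of all. GC boxes were in 42.9% of member promoters, against 33.1% of all. The core GCGTG, bound by the aryl hydrocarbon receptor (AHR), was in 44.9%, against 29.7%, and is not in capitals. E-boxes were in 8.16% against 6.42%, NRF2 cores in 10.2% against 12.1%, and the SREBP element TCACNCCAC in 0% against 1.12%. A match is a description of letters only. RefSeq promoters were found for 40 of the 50 members, and the 49 member promoters count several starts for some of these.

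The comparison asks which ABC genes differ between injured nerve with the conduit and injured nerve without it. Of the 50 members, 39 had enough counts to be tested, 3 had no count in any library (Abca12, Abca15 and Abcb5) and 8 had few. By edgeR's quasi-likelihood test, 24 of the 39 were called at an adjusted p under 0.05, which is 61.5%, beside 50.2% of all 15464 genes tested. Of these, 13 were higher in conduit nerves (24.0% of all genes were) and 11 were lower (26.2% of all genes were). The median log2 fold change, conduit minus untreated, was 0.19 over the 39 members and −0.04 over all genes. Groups did not overlap in 30 of the 39 members and in 61.7% of all genes tested. Without untreated replicate 1, as without conduit replicate 3, 12 members were called higher and 9 lower. When libraries were scaled by their totals alone, in place of the trimmed mean of M-values (TMM), the median of all genes moved by −0.39 and the members split into 11 higher and 15 lower. By that scaling 25.9% of all called genes were higher, against 47.8% with TMM.

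**Figure D1:**
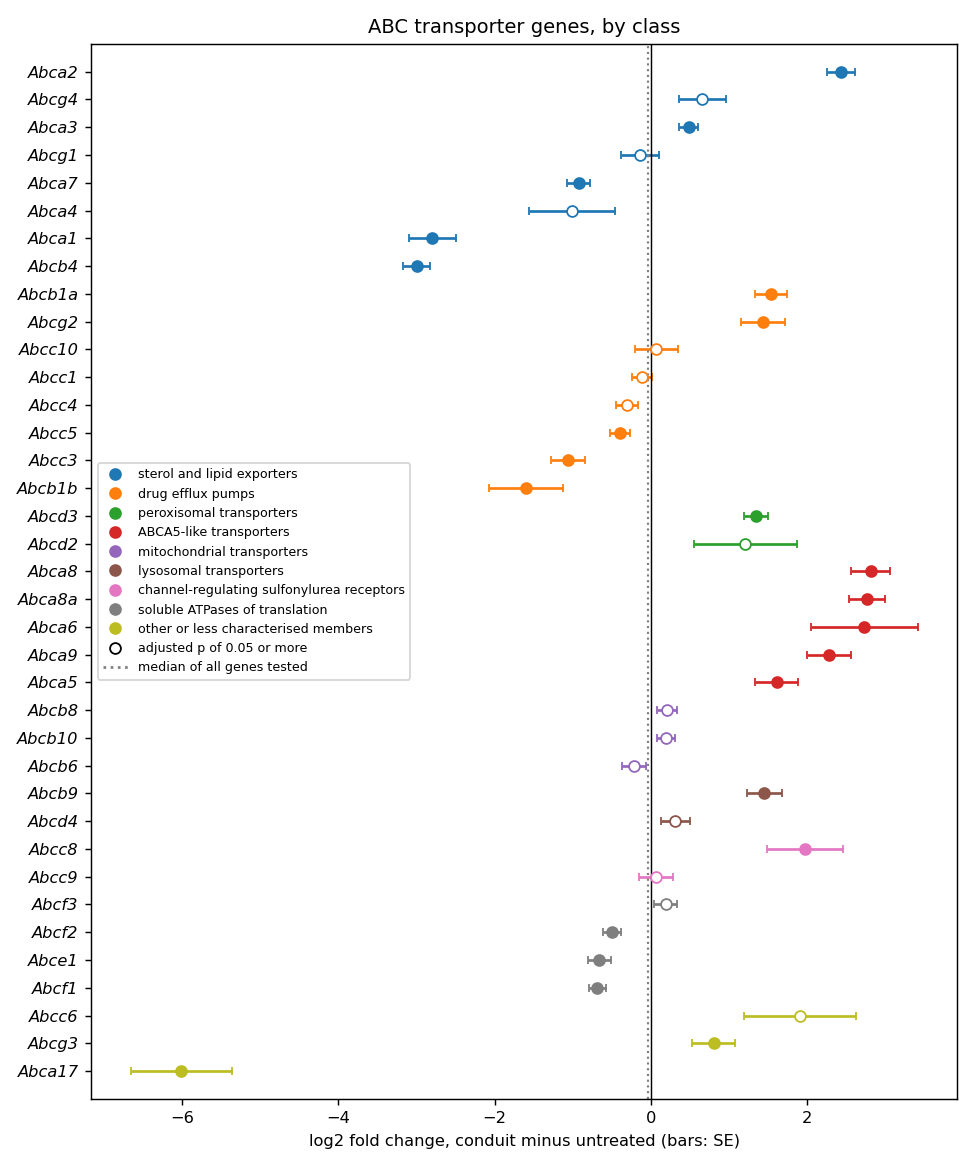
Log2 fold change, conduit minus untreated, for the tested ABC genes reported here, in 9 role classes (colours), with standard errors; open circles are genes with an adjusted p of 0.05 or more, and the dotted line is the median of all genes tested. Abca8, Abca8a and Abca6 lie farthest to the right and Abca17 farthest to the left.

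The class named sterol and lipid exporters held genes that moved in both directions. The name is loose: the class also holds Abca2 and Abca3 of intracellular compartments and the flippase Abca4. Abca8 and its neighbours form another class. The counts and median here therefore depend on how the class was drawn. Of 11 members, 8 were tested, 2 rose and 3 fell, with a median log2 fold change of −0.53. The share called was 62.5%, beside 50.2% of all genes tested. The summed level per length was 74.1 ± 6.23 FPKM in conduit nerves and 80.9 ± 5.03 FPKM in untreated nerves (SD, n = 3). The TMM-scaled sum, not per length, ran the other way, at 716 ± 22.0 CPM in conduit nerves and 571 ± 26.9 CPM in untreated nerves. FPKM, fragments per kilobase of gene relative to the library total, is the authors' unit and serves here to compare levels between genes. It carries no TMM scaling, so differences in FPKM sums between the groups depend on the scaling.

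Abca1, which loads cholesterol and phospholipid onto lipid-poor apolipoprotein A-I, had 30.8, 33.2 and 63.3 CPM in conduit replicates 1 to 3, against 271, 338 and 276 CPM in untreated nerves. Every conduit library was far below every untreated one, and conduit replicate 3 was the highest of its group. The log2 fold change was −2.80 ± 0.30 (SE, adjusted p = 0.000361, edgeR). The 10 macrophage markers moved the same way: all 10 fell, and their sum was 428, 582 and 761 CPM in conduit nerves, against 3521, 2910 and 3502 CPM in untreated nerves. None of the 10 was at 0 in all libraries, and the most abundant was Lyz2, a lysozyme of phagocytes, at 250.5 to 344 CPM in conduit and 1219 to 2061 CPM in untreated nerves. Their part in the Abca1 result was not tested.

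Abcg1, which passes cholesterol on to high-density lipoprotein and is often described beside Abca1, had 41.9, 45.0 and 70.2 CPM in conduit nerves, against 55.3, 45.3 and 72.4 CPM in untreated nerves. The groups overlapped, and the log2 fold change was −0.14 ± 0.25 (adjusted p = 0.667). Per length, Abca1 was at 0.247, 0.249 and 0.304 times the Abcg1 FPKM in conduit nerves, against 1.65, 2.51 and 1.28 times in untreated nerves. Abca1 was thus below Abcg1 in each conduit library and above it in each untreated one.

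Abcb4, the phosphatidylcholine floppase known from the bile canaliculus, had 3.13, 3.28 and 2.83 CPM in conduit nerves, against 25.6, 27.5 and 20.8 CPM in untreated nerves. The groups were far apart and each was tight, at −3.00 ± 0.17 on the log2 scale (adjusted p = 7.5e-05). Abca7, a phospholipid exporter close to Abca1 in sequence, had 9.48, 9.30 and 9.40 CPM in conduit nerves, against 19.8, 17.7 and 16.1 CPM in untreated nerves. Its conduit values were nearly equal and all lower, at −0.92 ± 0.14 (adjusted p = 0.00166).

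Abca2, an endolysosomal transporter linked to sphingolipid and cholesterol handling and abundant in oligodendrocytes of the brain, ran the other way. Its level was 489, 509 and 478 CPM in conduit nerves, against 80.3, 81.1 and 112 CPM in untreated nerves. Every conduit library was far above every untreated one, and the log2 fold change was 2.43 ± 0.17 (adjusted p = 0.000103). The 8 markers of myelinating Schwann cells, Pmp22 and Mbp among the most abundant, all rose, with a summed ratio of 9.97, conduit over untreated. Whether they had a part in the Abca2 result was not tested. Set against Abca1 per length, Abca2 was at 15.7, 15.2 and 7.48 times its FPKM in conduit nerves, against 0.294, 0.238 and 0.403 times in untreated nerves.

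Abca3, which fills surfactant lamellar bodies in the lung, had 114, 109 and 107 CPM in conduit nerves, against 82.5, 70.5 and 82.9 CPM in untreated nerves. The groups did not overlap with TMM scaling, at 0.48 ± 0.12 (adjusted p = 0.0121). The call was lost by library totals, at 0.10 (adjusted p = 0.473), and in the 3 fits on FPKM.

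The remaining tested members of this class were not called. Abca4, the retinoid flippase of photoreceptors, was at −1.01 ± 0.55 (adjusted p = 0.165), with conduit libraries spread from 0.330 to 1.78 CPM and all below the untreated ones at 2.19 to 2.34 CPM. Abcg4, a sterol exporter best known in brain, was at 0.66 ± 0.30 (adjusted p = 0.101), and without untreated replicate 3 it was called higher, at 0.99 (adjusted p = 0.0236). Abcg5 and Abcg8, the paired exporters of plant sterols in liver and gut, had at most 8 counts in a library, and Abca12 of the skin barrier had 0.

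**Figure D2:**
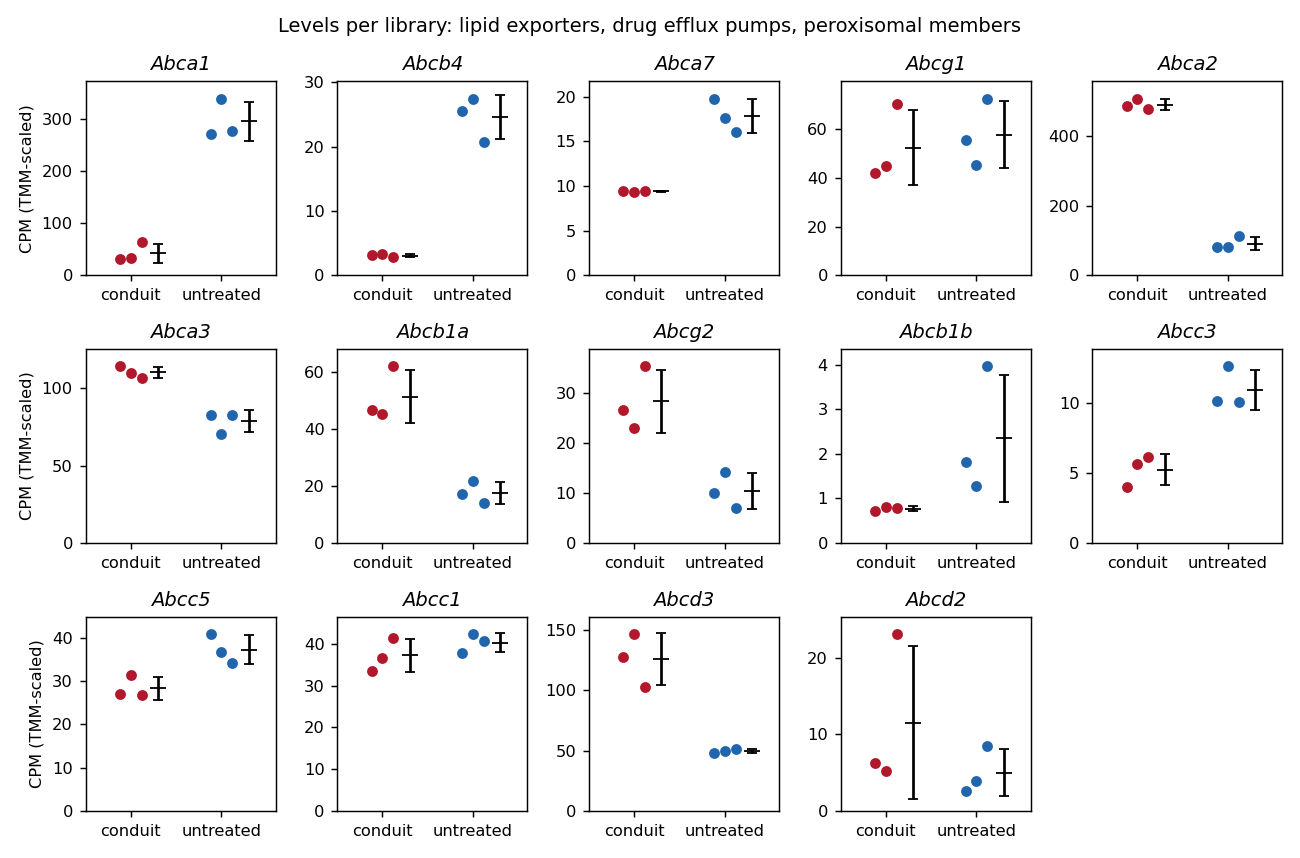
CPM (TMM-scaled) in each library for 14 lipid exporters, drug efflux pumps and peroxisomal members, conduit libraries in red on the left and untreated in blue on the right of each panel, with mean and SD in black. Abca1 and Abcb4 are low in all 3 conduit libraries, Abca2 and Abcd3 are high in them, and Abcg1 and Abcd2 overlap.

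The genes around sterol sensing and traffic, which were listed with earlier results known, were read beside the exporters. Of 13 genes of the LXR and SREBP pathways, 8 rose and 1 fell, with a median log2 fold change of 0.66. The share called was 69.2%, beside 50.2% of all genes tested. Insig1, which retains the SREBP escort in the endoplasmic reticulum, stood at 312, 305 and 261 CPM in conduit nerves, against 66.5, 63.9 and 82.3 CPM in untreated nerves (log2 fold change 2.04 ± 0.16, adjusted p = 0.000119). Srebf2, the main activator of cholesterol synthesis, rose by 1.25 ± 0.16 (adjusted p = 0.000754) and Scap, the escort itself, by 0.89 ± 0.12 (adjusted p = 0.000833). Of other known LXR targets on the list, Lpcat3 fell, at −1.19 ± 0.18 (adjusted p = 0.00134), Mylip was at 0.48 (adjusted p = 0.0786) and Srebf1 rose by 1.73 (adjusted p = 0.00100). Nr1h3, the LXR of macrophages and liver, was at −0.16 (adjusted p = 0.504). The other LXR gene, Nr1h2, rose by 0.55 ± 0.12 (adjusted p = 0.00794), with means of 118 CPM in conduit nerves and 80.5 CPM in untreated nerves. Abca1 and Lpcat3 were thus lower, Srebf1 higher, and Abcg1 and Mylip not called in the same comparison.

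Of 16 genes of lipoproteins and cellular sterol traffic, 4 rose and 7 fell, with a median of −0.52. The share called was 68.8%, beside 50.2% of all genes tested. Lipa, the lysosomal lipase that frees cholesterol from its esters, had 22.8, 25.1 and 34.4 CPM in conduit nerves, against 139.9, 131 and 124 CPM in untreated nerves (−2.26 ± 0.18, adjusted p = 0.000125). Lcat, which esterifies cholesterol in lipoproteins, rose by 2.97 ± 0.36 (adjusted p = 0.000541). Ch25h, which makes the oxysterol 25-hydroxycholesterol, was at −1.61 ± 0.21 (adjusted p = 0.00084).

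The drug efflux pumps showed 2 members up and 3 down. Of 9 members, 8 were tested and the median log2 fold change was −0.21. The share called was 62.5%, beside 50.2% of all genes tested. Their summed level was 25.4 ± 4.36 FPKM in conduit nerves and 24.6 ± 3.15 FPKM in untreated nerves (SD, n = 3). TMM-scaled and not per length, the sum was 175 ± 20.7 CPM in conduit nerves and 147 ± 12.2 CPM in untreated nerves.

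Abcb1a and Abcb1b together encode the P-glycoprotein of rodents, the multidrug pump of barrier endothelium. Abcb1a had 46.7, 45.2 and 61.9 CPM in conduit nerves, against 17.1, 21.7 and 14.0 CPM in untreated nerves. All conduit libraries were above all untreated ones, at 1.54 ± 0.20 (adjusted p = 0.000841). Abcb1b had 0.715, 0.820 and 0.786 CPM in conduit nerves, against 1.82, 1.27 and 3.96 CPM in untreated nerves. It was lower in every conduit library, at −1.60 ± 0.47 (adjusted p = 0.0258), with untreated replicate 3 well above its group. Without that replicate the value was −0.99 (adjusted p = 0.0760), and the call was also lost without any 1 conduit library.

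Per length, Abcb1a was at 54.2, 45.7 and 65.4 times Abcb1b in conduit nerves, against 7.80, 14.2 and 2.93 times in untreated nerves. The paralogs share sequence, so some reads may have been split between them, and Abcb1a overlaps Rundc3b in the RefSeq annotation.

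Abcg2, the breast cancer resistance protein, a second pump of barrier endothelium, had 26.8, 23.1 and 35.4 CPM in conduit nerves, against 10.1, 14.3 and 6.995 CPM in untreated nerves. The groups did not overlap and the log2 fold change was 1.44 ± 0.28 (adjusted p = 0.00474). Abcb1a and Abcg2 were both highest in conduit replicate 3 among conduit libraries, and both lowest in untreated replicate 3 among untreated ones. Of 9 endothelial markers, 1 rose (Cldn5, a tight junction protein, 1.08 ± 0.28) and 2 fell (Pecam1 and Tie1), and none was at 0. Their sum was 868, 929.5 and 1063 CPM in conduit nerves, against 994, 1347 and 1221 CPM in untreated nerves, and the groups overlapped. Their part in the values of the pumps was not tested. The sum of 7 pericyte and mural cell markers was 958 to 1271 CPM in conduit and 862 to 1293 CPM in untreated nerves. Perineurial markers rose (4 of 4 tested), with sums of 2191 to 2612 CPM in conduit and 417 to 629.6 CPM in untreated nerves. The largest part of these sums was 1 gene, Itgb4, with means of 1653 CPM in conduit and 234 CPM in untreated nerves. The part of the mural and perineurial cells in the values of the pumps was not tested either.

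Among multidrug resistance proteins of subfamily C, Abcc3, which exports glucuronides and bile acids, had 4.01, 5.65 and 6.13 CPM in conduit nerves, against 10.2, 12.6 and 10.1 CPM in untreated nerves. It was lower in each conduit library, at −1.06 ± 0.22 (adjusted p = 0.00627). Abcc5, an exporter of cyclic nucleotides, had 26.9, 31.4 and 26.7 CPM in conduit nerves, against 40.8, 36.7 and 34.1 CPM in untreated nerves. This small difference, −0.39 ± 0.13 (adjusted p = 0.0364), lost its call in 7 of 15 alternatives, among them DESeq2 and the fits without untreated replicate 1 or any 1 conduit library.

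Abcc1, the exporter of leukotriene C4 and glutathione conjugates, was at −0.11 ± 0.12 (adjusted p = 0.473) and Abcc4, which exports cyclic nucleotides and prostaglandins, at −0.31 ± 0.14 (adjusted p = 0.107). Both were called lower by library totals, at −0.50 and −0.70. Abcc10 was at 0.07 ± 0.27 (adjusted p = 0.847) and at −0.30 by library totals. Abcc2, the conjugate pump of bile canaliculi, was too low to be tested: 1, 0 and 1 counts in conduit nerves, against 12, 21 and 8 counts in untreated nerves. Its pooled CPM was 16.2 times higher in untreated nerves (95% interval 4.48 to 134, counting error of the conduit counts only).

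**Figure D3:**
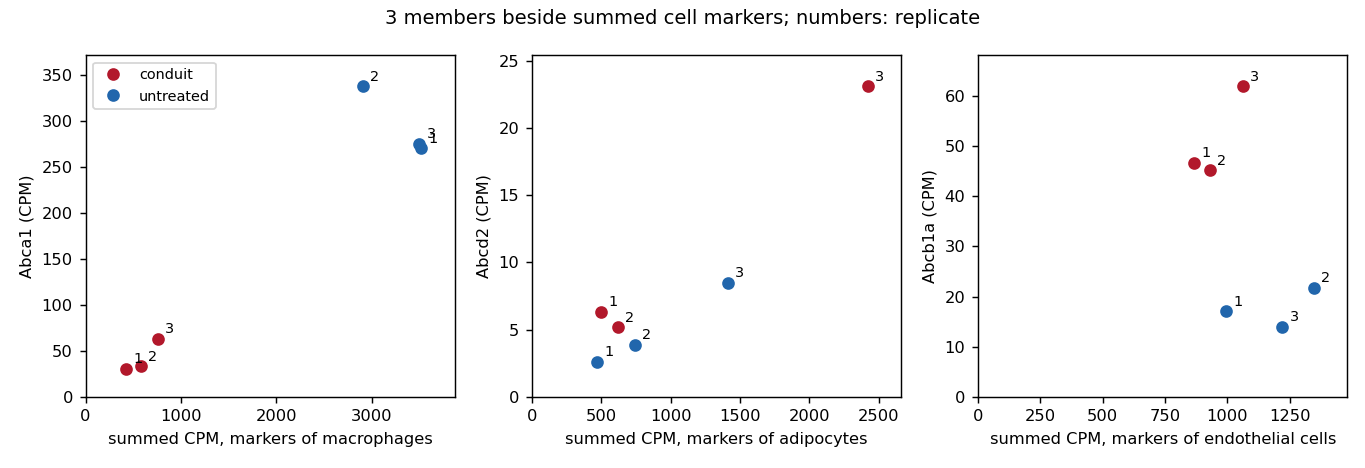
CPM of Abca1, Abcd2 and Abcb1a in each library (vertical axes) against the summed CPM of macrophage, adipocyte and endothelial markers (horizontal axes), conduit in red and untreated in blue, with replicate numbers. Abca1 and the macrophage sum separate the groups in the same direction, Abcd2 is highest in conduit replicate 3 where the adipocyte sum is highest, and Abcb1a is higher in conduit libraries at endothelial sums of 868 to 1063 CPM than in untreated libraries at 994 to 1347 CPM.

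Of 17 listed genes of xenobiotic handling outside the family, 14 were tested, 4 rose and 1 fell (Gclc), with a median of 0.10. The share called was 35.7%, below the 50.2% of all genes. Cyp1a1, an AHR-induced cytochrome, had 13.5, 33.0 and 49.1 CPM in conduit nerves, against 1 count in the untreated libraries together. The related Cyp1b1 was not called, at −0.23 (adjusted p = 0.491), nor was the receptor gene Ahr, at −0.43 (adjusted p = 0.107). Gsta4, a glutathione transferase for lipid aldehydes, had 105, 94.9 and 82.0 CPM in conduit nerves, against 15.1, 7.63 and 11.1 CPM in untreated nerves (3.06 ± 0.26, adjusted p = 0.000142). Nqo1, a quinone reductase, rose by 1.14 ± 0.13 (adjusted p = 0.000457). Slco1a4, an uptake transporter of barrier endothelium, rose by 1.04 ± 0.18 (adjusted p = 0.00263).

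Of the peroxisomal transporters, Abcd3 rose and Abcd2 was not called. The summed level was 37.0 ± 2.82 FPKM in conduit nerves and 24.95 ± 1.38 FPKM in untreated nerves (SD, n = 3), most of it Abcd3. Abcd3, the 70-kDa peroxisomal membrane protein that imports branched-chain and dicarboxylic acyl groups, had 128, 146 and 103 CPM in conduit nerves, against 47.8, 49.7 and 51.2 CPM in untreated nerves. The lowest conduit library held more than any untreated one, at 1.34 ± 0.15 (adjusted p = 0.000433).

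Abcd2, an importer of fatty acyl-CoA, had 6.32, 5.17 and 23.1 CPM in conduit nerves, against 2.60, 3.88 and 8.49 CPM in untreated nerves. The groups overlapped, with replicate 3 the highest in each, and the log2 fold change was 1.21 ± 0.66 (adjusted p = 0.167). It was 0.25 without conduit replicate 3 (adjusted p = 0.715) and 1.83 without untreated replicate 3 (adjusted p = 0.0766). The 7 adipocyte markers summed to 498, 622 and 2420 CPM in conduit nerves, against 469, 743 and 1413 CPM in untreated nerves, and 2 of them rose (Cidec and Lep). The most abundant of them, Cfd and Fabp4, were not called and none was at 0. Their part in the Abcd2 values was not tested.

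Around these transporters, 11 of 29 tested genes of peroxisome assembly and oxidation rose and 0 fell by edgeR, with 0 lower at an unadjusted p under 0.05 and 0 by DESeq2. The share called, all of it higher, was 37.9%, against 50.2% called and 24.0% called higher among all genes tested. The median log2 fold change of the list was 0.44. Acaa1a, the thiolase of peroxisomal β-oxidation, had 65.7, 85.2 and 77.3 CPM in conduit nerves, against 35.4, 26.7 and 34.8 CPM in untreated nerves (1.24 ± 0.16, adjusted p = 0.000785). Gnpat, which begins plasmalogen synthesis, rose by 0.69 ± 0.10 (adjusted p = 0.00149).

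Among the 9 role classes, the ABCA5-like genes were the only one in which every tested member was called. All 5 rose, with a median log2 fold change of 2.73, and 0 were lower at an unadjusted p under 0.05 or by DESeq2. Of all genes tested, 24.0% were called higher. Their summed level was 106, 145 and 130.3 FPKM in conduit nerves, against 19.9, 23.0 and 32.1 FPKM in untreated nerves. Human ABCA8 is known to promote cholesterol efflux, and the substrates of the other members are less well known.

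Abca8a was the most abundant, at 649.6, 901 and 763 CPM in conduit nerves, against 92.1, 101 and 145 CPM in untreated nerves. The conduit libraries were far above the untreated ones, at 2.77 ± 0.23 (adjusted p = 0.000141). Abca8 had 17.1, 19.3 and 16.5 CPM in conduit nerves, against 1.82, 2.42 and 3.27 CPM in untreated nerves (2.81 ± 0.25, adjusted p = 0.000158). Abca9 had 56.4, 85.6 and 72.9 CPM in conduit nerves, against 12.4, 10.9 and 21.0 CPM in untreated nerves (2.28 ± 0.28, adjusted p = 0.000641). Untreated replicate 3 was the highest of its group for all 3 genes.

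Abca6 was scarce, at 0.577, 0.876 and 1.36 CPM in conduit nerves, against 0.0433, 0.101 and 0.276 CPM in untreated nerves. All conduit values were higher, at 2.73 ± 0.69 (adjusted p = 0.0133), and the value was 3.64 without untreated replicate 3. Abca5, which resides in lysosomes and late endosomes, had 3.33, 3.19 and 3.75 CPM in conduit nerves, against 0.952, 1.27 and 1.13 CPM in untreated nerves (1.61 ± 0.28, adjusted p = 0.0026). Beside these genes, myelinating Schwann cell markers rose (8 of 8), perineurial markers rose (4 of 4 tested, with Lypd2 at 0 in all libraries), and of 7 fibroblast markers 1 rose and 1 fell. The perineurial sum was 2191, 2467 and 2612 CPM in conduit nerves, against 417, 507 and 629.6 CPM in untreated nerves. Its largest part was Itgb4, with means of 1653 CPM in conduit and 234 CPM in untreated nerves. The fibroblast sum was 14820, 28000 and 29330 CPM in conduit nerves, against 8373, 9746 and 17220 CPM in untreated nerves. Most of it came from 2 collagen genes. Col1a1 had means of 11320 CPM in conduit and 4173 CPM in untreated nerves, and Col3a1 of 9447 and 4536 CPM. Col1a1 was the fibroblast marker that rose, Pdgfra the one that fell, and the others, Col3a1 among them, were not called. The part of these cells in the result was not tested.

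Gene order added a description that the symbols do not give. On chromosome 10 of GRCr8 the 5 ABCA5-like genes follow each other as Abca8, Abca8a, Abca9, Abca6 and Abca5, with 0 protein-coding genes between them, and all rose. On chromosome 4, Abcb4, Abcb1b and Abcb1a also follow each other with 0 between, but Abcb4 and Abcb1b fell and Abcb1a rose. Abca17 and Abca3, neighbours on chromosome 10, fell and rose. Of the runs printed above, the promoters of Abca8 and Abca9 were poor in G and C over their 300-base windows, at 43.7% and 34.7%, against 77.3% for Abca2 and a median of 58.3% over all member promoters. Abca5, at the other end of the group, had 75.3%. Reads of Abca8, Abca8a and Abca9 may have been split among these similar genes.

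**Figure D4:**
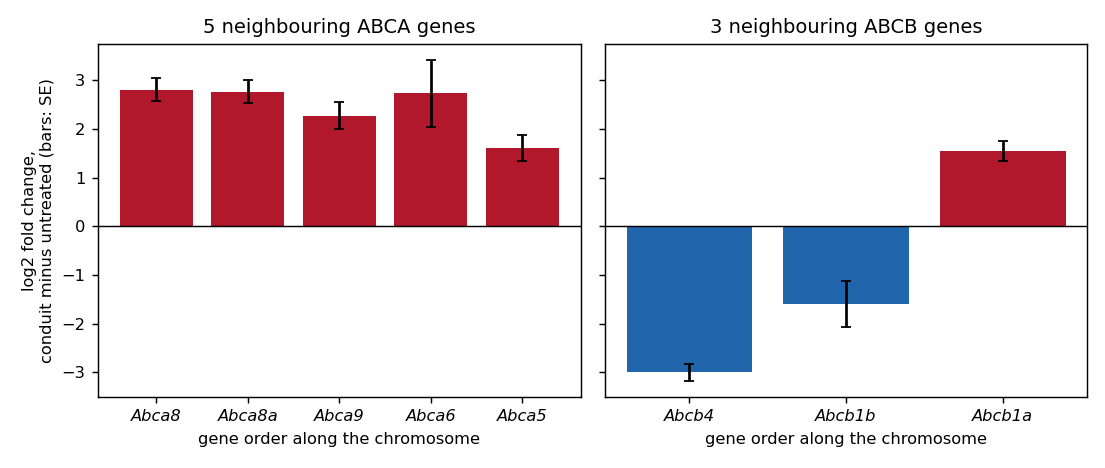
Log2 fold change, conduit minus untreated, with standard errors, of neighbouring ABC genes in their order along chromosome 10 (left) and chromosome 4 (right). The 5 ABCA genes are all higher in conduit nerves, from 1.61 to 2.81, while the 3 ABCB genes run from −3.00 to 1.54.

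Of the 4 soluble ATPases of translation, 3 fell and none rose by edgeR, with 0 higher at an unadjusted p under 0.05 and 0 by DESeq2. Of all genes tested, 26.2% were called lower. Abce1, which splits ribosomes after termination, had 76.6, 67.8 and 74.8 CPM in conduit nerves, against 110.3, 137 and 100.1 CPM in untreated nerves (−0.66 ± 0.15, adjusted p = 0.00818). Abcf1, which acts with initiation factor eIF2, had 63.5, 62.6 and 64.1 CPM in conduit nerves, against 104, 106 and 95.6 CPM in untreated nerves (−0.69 ± 0.11, adjusted p = 0.00169). Abcf2 had 48.0, 51.1 and 50.8 CPM in conduit nerves, against 75.9, 72.9 and 62.9 CPM in untreated nerves (−0.50 ± 0.12, adjusted p = 0.0105). In none of the 3 did the groups overlap, while Abcf3 overlapped, at 0.19 ± 0.14 (adjusted p = 0.304) and −0.19 by library totals. Without conduit replicate 2 the Abce1 call was lost (adjusted p = 0.0535), and without conduit replicate 1 that of Abcf2 (adjusted p = 0.0551). The 6 proliferation markers fell as well, with sums of 10.4 to 19.1 CPM in conduit and 209.8 to 302 CPM in untreated nerves, and their part was not tested. Of 7 genes of ribosome recycling and stress translation, 4 fell and 0 rose by edgeR (0 at an unadjusted p under 0.05, 0 by DESeq2), with a median of −0.48. The share called was 57.1%, beside 50.2% of all genes tested. Eif2s1, a subunit of eIF2, was at −1.02 ± 0.13 (adjusted p = 0.000833), Eif2s3 at −0.66 ± 0.12 (adjusted p = 0.00275) and Pelo, a ribosome rescue factor, at −0.48 ± 0.13 (adjusted p = 0.0186).

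None of the 4 mitochondrial members was called by edgeR, with 0 at an unadjusted p under 0.05 in either direction and 0 by DESeq2. Abcb6, linked to porphyrin transport, was at −0.21 ± 0.16 (adjusted p = 0.290), Abcb10, needed for heme synthesis, at 0.19 ± 0.12 (adjusted p = 0.209) and Abcb8 at 0.20 ± 0.13 (adjusted p = 0.228). By library totals Abcb6 was called lower, at −0.60, and Abcb10 and Abcb8 were below 0, both at −0.19. Of 14 genes of heme and iron-sulfur synthesis, Iscu, the scaffold protein, rose (1.03 ± 0.22, adjusted p = 0.00693), Cpox, an oxidase of heme synthesis, fell (−0.89 ± 0.28, adjusted p = 0.0319) and 12 were not called. The share called was 14.3%, below the 50.2% of all genes tested.

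Abcb9, a lysosomal peptide transporter related to the TAP proteins, had 14.2, 10.3 and 14.5 CPM in conduit nerves, against 5.80, 4.10 and 4.35 CPM in untreated nerves. All conduit libraries were higher, at 1.45 ± 0.23 (adjusted p = 0.00172). Abcd4, which serves cobalamin export from lysosomes, was at 0.31 ± 0.19 (adjusted p = 0.196) and at −0.07 by library totals.

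Abcc8, the sulfonylurea receptor SUR1 that gates ATP-sensitive potassium channels, had 1.02, 1.22 and 1.13 CPM in conduit nerves, against 0.455, 0.141 and 0.253 CPM in untreated nerves. The conduit libraries were all higher, at 1.98 ± 0.49 (adjusted p = 0.0124), at few counts. Abcc9, the receptor SUR2 of muscle and vessel walls, was at 0.07 ± 0.22 (adjusted p = 0.810) and at −0.31 by library totals. Of the channel pores, Kcnj8 fell, at −0.61 ± 0.19 (adjusted p = 0.0309), and Kcnj11 was at 0.43 (adjusted p = 0.791), with 7.90 CPM in untreated replicate 1, the library high in muscle markers, and at most 0.242 CPM in the other untreated libraries.

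Of 10 other or less characterised members 3 were tested. Abca17 had 0, 2 and 2 counts in conduit nerves, against 99, 119 and 133 counts in untreated nerves. Its pooled CPM was 69.3 times higher in untreated nerves (95% interval 27.1 to 254, counting error of the conduit counts only), and edgeR called it lower (adjusted p = 0.000351). Abcg3 had 5.42, 3.84 and 3.75 CPM in conduit nerves, against 2.01, 2.75 and 2.69 CPM in untreated nerves (0.80 ± 0.27, adjusted p = 0.0431). Its call was lost in 12 of the 14 alternatives that tested it, among them each fit without 1 library, and reads may be split with 4 similar genes, of which Abcg3l1 rose by 0.60, Abcg3l2 fell by 0.68, Abcg3l4 fell by 1.13 and Abcg3l3 was at −0.39 (adjusted p = 0.179). Abcc6, a liver transporter that protects against ectopic calcification, was at 1.91 ± 0.71 (adjusted p = 0.0579), and without untreated replicate 3 it was called higher, at 2.68 (adjusted p = 0.0349). Abca13, Abca14, Abca16, Abcb11 and Abcc12 had 0 to 29 counts in any library and were not tested.

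The make-up of the family by length-scaled level shifted between the groups. Abca8a held 32.4 ± 3.25% of the summed family FPKM in conduit nerves, where it ranked 1, and 7.14 ± 1.81% in untreated nerves, where it ranked 5 (SD, n = 3). Abca2 held 11.3 ± 0.678% in conduit nerves and 3.15 ± 0.634% in untreated nerves. Abca1 held 0.983 ± 0.406% in conduit nerves, at rank 19, and 10.3 ± 1.14% in untreated nerves, at rank 3. Abce1 held 5.13 ± 0.645% in conduit nerves and 12.1 ± 1.80% in untreated nerves, where it ranked 1. The whole family summed to 359 ± 24.8 FPKM in conduit nerves and 313 ± 14.7 FPKM in untreated nerves. TMM-scaled and not per length, the sums were 2292 ± 165 CPM in conduit nerves and 1393 ± 44.2 CPM in untreated nerves.

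**Figure D5:**
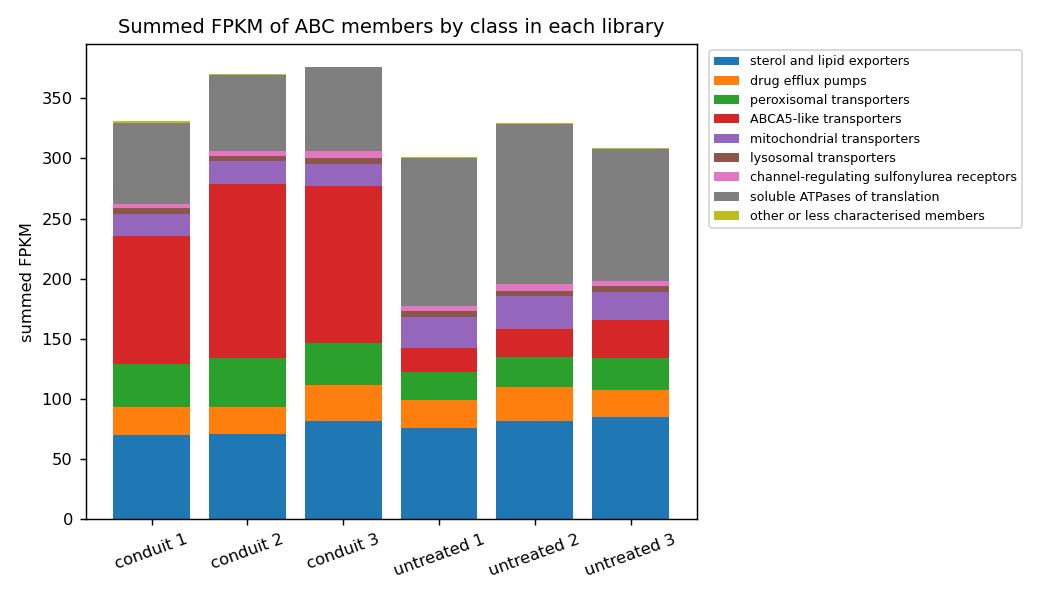
Summed FPKM of the 50 ABC members in each library, stacked by role class, conduit libraries on the left. The ABCA5-like genes (red) reach 106 to 145 FPKM in conduit and 19.9 to 32.1 FPKM in untreated libraries, and the soluble ATPases (grey) 63.6 to 69.5 FPKM in conduit and 109.6 to 133 FPKM in untreated libraries. FPKM is relative to library totals, without TMM scaling.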

How the data were processed

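Messenger RNA of sciatic nerve was sequenced in 3 conduit and 3 untreated libraries, made with TRIzol extraction and the VAHTS Universal V10 kit, per the labels' protocols. The authors deposited raw counts per gene and FPKM values, 1 column per library. Their tools were fastp, HISAT2, HTSeq and DESeq2 with mRatBN7.2, per the submitters' processing notes; versions and strandedness were not given in the sources used here, so reads of overlapping or antisense genes cannot be told apart (21 of 50 members overlap another annotated gene in GRCr8, 5 of them a protein-coding one). Deposited FPKM equalled the count over 1 gene length and the library total in all 20504 genes checked (FPKM above 0 in 2 or more libraries, tolerance 0.0001).

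Genes kept by filterByExpr (minimum count 10) were tested with edgeR 4.0.16 in R 4.3.3: TMM scaling, quasi-likelihood F test, two-sided, group alone, Benjamini-Hochberg adjustment over all 15464 genes tested, and called at an adjusted p under 0.05. The script was tested on simulated data. There it recovered 19.4% of 98 genes changed by a log2 fold of 1 and 79% of 100 changed by 2, with 3 false calls. Far fewer genes changed there than were called here, so these shares do not carry over to these data. A member not called is not thereby shown to be unchanged. CPM is relative to the TMM-scaled total, and SE is the log2 fold change over the square root of F. Membership follows the symbol pattern alone, but the family, its role classes and the gene lists were chosen with earlier results of these data known, so their counts and medians are descriptions with no test. Values per library are given for every called member of the 3 main classes and, up to 25 members, for the called members of other classes with the largest changes; up to 3 genes with the smallest adjusted p are named of each pathway list, and up to 2 of the most abundant of marker lists. Mylip, Srebf1, Nr1h3, Nr1h2, Lpcat3, Gclc, Slco1a4, Cyp1b1, Ahr, Kcnj11, the Abcg3-like genes and the called markers were named after their values were seen. RefSeq gene order, gene overlaps and promoters (GRCr8) were matched by symbol. Some genes that this rule names are not reported here by name, although counts and sums over a class or list include them. Intervals use exact Poisson limits of the smaller pooled count and hold the larger count fixed. They leave out the counting error of the larger count and all variation between libraries, and PCR reads are not independent molecules.

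Alternatives were RLE scaling, library totals, DESeq2 1.42.0, no low-count filter, a stricter filter (5 CPM in 3 libraries), a block for the replicate number, limma 3.58.1 on log2(FPKM + 1) or log2(FPKM + 0.1) where FPKM reached 0.5 in 3 libraries, log2(FPKM + 1) unfiltered, and omission of each library singly.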

Additional observations from a re-analysis of the deposited data

How the results depend on the processing

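Of the 24 called members, 17 kept their direction and their call in every alternative that tested them, 12 to 15 for each; of the 15 not called, each moved in at least 1. Scaling mattered most. By library totals, 2291 genes were higher and 6554 lower, and in the fits on log2(FPKM + 1), log2(FPKM + 0.1) and unfiltered log2(FPKM + 1), 2044, 2034 and 2254 were higher, with 6263 lower in the last. In these 4 fits 1 lipid exporter was higher, and 5 efflux pumps were lower by library totals and by unfiltered FPKM. In the order library totals, log2(FPKM + 1), log2(FPKM + 0.1) and unfiltered FPKM, the sign turned for Abcb10 (−0.19, −0.16, −0.19, −0.16), Abcb8 (−0.19, −0.15, −0.18, −0.15), Abcc10 (−0.30, −0.16, −0.32, −0.16), Abcc9 (−0.31, −0.27, −0.33, −0.27), Abcd4 (−0.0695, −0.0462, −0.0559, −0.0462) and Abcf3 (−0.19, −0.18, −0.19, −0.18), none called with TMM. Leaving out 1 library gave 12 to 14 members higher and 8 to 11 lower, and 0 to 1 peroxisomal members lower. Signs also turned for Abcg1, which ran from −0.37 without conduit replicate 3 up to 0.0601 when untreated replicate 3 was omitted (0.02 without conduit replicate 1), for Abcc9, from −0.14 (without conduit replicate 3; −0.01 without untreated replicate 3) to 0.24 (without conduit replicate 1), and for Abcc10, from −0.12 (without conduit replicate 3) to 0.29 (without conduit replicate 2). With no low-count filter 0 peroxisomal members were lower. With the replicate number as a block, 13 members were higher and 9 lower, 2 peroxisomal members were higher (Abcd2 at 1.05) and 0 lower; same-numbered libraries deviated together at correlations of 0.144, −0.0278 and 0.0636, so the number was not taken as a pairing. At least 5 CPM in 3 libraries left 31 members tested. The cause of these changes was not tested. The widest standard errors were those of Abcc6 (0.712), Abca6 (0.686), Abcd2 (0.664) and Abca17 (0.646); Abcc6 and Abca6 had few counts in both groups and Abca17 in conduit nerves.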

Other observations

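ABC-family genes whose symbols do not follow the pattern also differed. Tap1 and Tap2, which carry peptides to MHC class I molecules, fell in conduit nerves: Tap1 had 20.9, 17.1 and 21.9 CPM in conduit nerves, against 54.6, 39.8 and 44.9 CPM in untreated nerves (log2 fold change −1.22 ± 0.16, edgeR adjusted p = 0.000893). Tap2 was at −0.62 ± 0.14 (adjusted p = 0.00798). Cftr, the chloride channel of the family, had 29, 20 and 40 counts in conduit nerves, against 0, 4 and 0 counts in untreated nerves, and was called higher (adjusted p = 0.00501).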
